A study of Drosophila melanogaster with 32 samples.

Results

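Ribosome-bound RNA from genetically marked brain cells was compared with RNA of the whole brain in wild-type Drosophila melanogaster larvae of instar 3. All libraries of the comparison came from larvae carrying ipcGal4 and UASRpl10Ab::GFP, in which the driver ipcGal4 puts GFP-tagged ribosomal protein RpL10Ab into the cells where it is active, and neither group carried the ato1 allele. Brains were pooled, 500 for each preparation; 10% of the homogenate was kept as input, and antibodies to GFP pulled the tagged ribosomes from the rest (IP). The comparison takes 16 of the 32 sequencing runs of the series, namely the 4 runs of each of 2 inputs and 2 IPs, and these were summed to 4 libraries. The cells sampled are those with Gal4 activity, which the series names as T4 and T5 neurons, together with any other cell in which the driver is on. The labels do not say that the 2 preparations were separate cultures of animals, so p-values describe these libraries alone. They rest on a spread shared over genes and not on each gene's own spread between libraries.

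Pulling down a tagged ribosome enriches mRNAs that the marked cells are translating, and it leaves in the background some RNA from the rest of the homogenate. T4 and T5 neurons are the motion-detecting columnar neurons of the fly optic lobe, and in larvae they are being born from progenitors in the inner proliferation center, so that newborn and differentiating cells are present together. Neuronal differentiation is known for the onset of ion channels, neurotransmitter receptors and axonal cytoskeleton, while dividing progenitors are known for DNA replication factors and ribosome production. Whether the changes below come from such differences between cells was not tested.

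The inputs held 12238648 and 10099533 counts and the IPs 8904370 and 7780123. Genes with any count numbered 10368 and 10509 in the inputs, and 12189 and 12010 in the IPs. Levels are given as CPM, counts scaled by the library total and its TMM factor, and a count of 3 corresponds to 0.245 to 0.401 CPM. Of the 14161 genes in the table, 9437 had enough counts to be tested. With edgeR's quasi-likelihood test, paired by preparation and with an adjusted p below 0.05, 1820 genes were higher in the IP (19.3% of those tested) and 1963 were lower (20.8%), so 40.1% were called in either direction. These percentages are the background against which each gene group is read. The background differed by level: of 2286 tested genes with a mean below 10 CPM, 681 were higher and 30 lower. At 10 CPM or more, 1139 of 7151 genes were higher and 1933 lower. A lack of lower calls in a list of low genes is therefore not read as a trait of its members. Counts of calls fell to 1331 higher and 1230 lower with the DESeq2 Wald test, to 1048 and 1126 without input 1, and to 1212 and 1244 without input 2. Every fit that leaves out a library is unpaired.

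Genes called higher had a median log2 change of 1.38, and 643 of them lay above 2. Genes called lower had a median of -0.89, and 26 of them lay below -2. Much of the larger size in the higher direction came from low genes, some of which passed the count filter only through the IPs: among the 7151 tested genes with a mean of at least 10 CPM, the medians were 0.96 for 1139 genes called higher and -0.88 for 1933 called lower. The sign was the same in both preparations for 3712 genes that were higher and 3678 that were lower, and it differed for 2047 genes, of which 2 were called. Across tested genes the log2 ratios of the 2 preparations correlated at 0.785 (Pearson), where genes are not independent replicates. The levels of IP and input did not overlap for 1809 of the 1820 genes called higher and for 1956 of the 1963 called lower. Such separation largely follows from the call, so here and for single genes below it is a description and no added support. Its share over all tested genes was not counted. Among the genes called higher were 125 with 0 counts in both inputs and at least 10 in each IP, and 0 genes had the reverse. All 125 genes chosen this way were called, which follows from the choice, since only the IPs carried them past the count filter. Their pooled IP levels were low, from 1.26 to 6.8 CPM. Among them Gas8, a dynein regulatory complex gene known from cilia, had 70 and 35 counts in the IPs, at least 47.2-fold above a floor of 3 counts summed over both inputs.

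**Figure D1:**
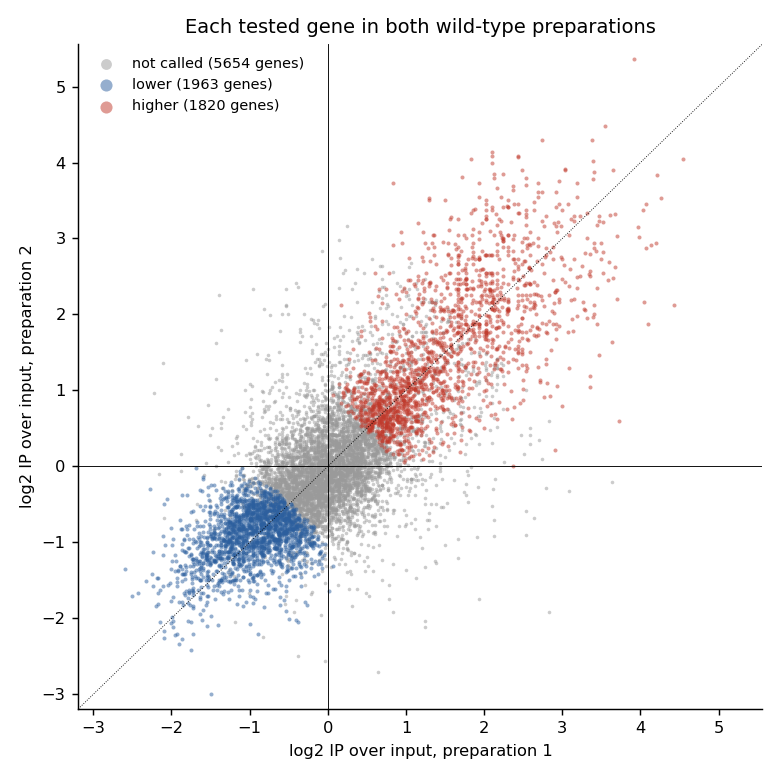
Log2 ratio of IP to input for each tested gene in preparation 1 (horizontal axis) and preparation 2 (vertical axis), with genes called higher in red, lower in blue and not called in grey. The 1820 red and 1963 blue points lie along the dotted line of equal change, and red points reach further from 0 than blue ones.

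The tagged protein and the markers of the named cells were examined first. RpL10Ab, whose count includes reads of the tagged copy, was at 2000 and 1840 CPM in the inputs and at 2260 and 3450 CPM in the IPs. Both IPs lay above both inputs, but the log2 change of 0.54 ± 0.25 (SE of the paired fit, n = 2 libraries per group) did not pass (edgeR adjusted p = 0.0646). Here and below, the SE rests on a spread shared over genes and does not measure how far a gene's own 2 preparations differ. The call was made by 7 of the 12 alternatives, among them the fit without pairing (0.57, edgeR adjusted p = 0.0483) and the fit without IP 1. A fit with 1 IP takes its spread from the 2 inputs alone. The log2 change was 0.89 without IP 1 and 0.22 without IP 2.

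Of the 8 transcription factors reported in T4 and T5 neurons or their progenitors, 3 were higher and 0 lower, with a median log2 change of 0.53 against 0.01 over all tested genes. The GATA factor gene grn was at 39.6 and 33.1 CPM in the inputs and 77.3 and 88.4 CPM in the IPs. The T-box gene bi was at 87.2 and 98.5 CPM in the inputs and 187 and 202 CPM in the IPs, and dac, a nuclear cofactor of eye and optic lobe development, at 93.8 and 91.8 CPM against 209 and 166 CPM. For these 3 genes the IPs lay above the inputs without overlap, with log2 changes of 1.19 ± 0.23, 1.07 ± 0.21 and 1.01 ± 0.21. The proneural gene ato itself was at 12.9 and 12.9 CPM in the inputs and 13.1 and 17.0 CPM in the IPs (log2 0.21 ± 0.32, edgeR adjusted p = 0.642). The POU factor gene acj6 had a log2 value of 0.76 ± 0.43, SoxN 0.30 ± 0.20, Sox102F 0.18 ± 0.22 and AP-2 -0.34 ± 0.22, and none of these 4 passed. The log2 change of AP-2 was -0.43 without IP 1, and that of SoxN was 0.34 without IP 2. With 1 run per library acj6 was called higher (1.46, edgeR adjusted p = 0.0351), and the list then had 4 higher and 0 lower.

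Markers of neighbouring neurons and of progenitors were called higher in shares of 33.3% each, against 37.5% for the T4 and T5 list, and the difference between these shares was not tested. Of 15 medulla and lamina factors, 5 were higher and 0 lower. The homeobox gene hth rose from 555 and 600 CPM to 1250 and 1460 CPM (log2 1.23 ± 0.23), and the nuclear receptor gene svp rose from 7.67 and 12.3 CPM to 32.6 and 50.3 CPM (2.06 ± 0.28). Both groups were fully apart for both genes. Lim1, sim and vvl were also higher. Of 15 neuroblast and neuroepithelial genes, 5 were higher and 3 lower: the zinc finger gene klu, which acts in neuroblasts, rose by a log2 of 1.59 ± 0.21, while the neuroblast factors D, wor and dpn fell by 1.38, 0.72 and 0.62 on the log2 scale. The progenitor counts were 1 higher and 1 lower without input 1, and 1 and 2 without input 2. In a bulk sample, fewer cells of a type and less RNA per cell cannot be told apart.

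Ion channels were among the most uniformly raised groups. Of 23 genes for voltage-gated and leak channels, 20 were higher and 0 lower (87.0% against a background of 19.3%), and the median log2 change was 1.87. Summed over the list, the level was 285 and 319 CPM in the inputs and 998 and 1050 CPM in the IPs. The calcium channel gene cac (X: 11827729 to 11875209 in dm3), which encodes the presynaptic channel that triggers transmitter release, was at 17.6 and 22.0 CPM in the inputs and 129 and 159 CPM in the IPs, a 7.27-fold difference (log2 2.86 ± 0.24, edgeR adjusted p = 1.57e-30). The calcium-activated potassium channel gene slo had the largest change of the list, from 4.08 and 5.70 CPM to 40.3 and 57.8 CPM (9.98-fold, log2 3.32 ± 0.30). The IPs of both genes stood above the inputs without overlap.

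The potassium channels included 10 of 12 members called higher. Sh, the founding voltage-gated potassium channel gene, had a log2 change of 2.25 ± 0.23, Shab 2.63 ± 0.29, SK 2.20 ± 0.24 and eag 2.80 ± 0.54. Shal, at 0.21 ± 0.27, and sei, at 21.8 and 19.5 CPM in the inputs and 22.6 and 18.6 CPM in the IPs, were not called. The sodium channel gene para, which carries the action potential, was at 6.20 and 3.93 CPM in the inputs and 30.3 and 37.2 CPM in the IPs (2.73 ± 0.31), whereas its auxiliary subunit gene tipE stayed between 21.1 and 28.3 CPM in all 4 libraries (0.14 ± 0.27). All 5 calcium channel genes and all 3 genes of the sodium leak channel complex (na, unc79 and CG18437, now unc80) were higher. Leaving out any 1 library left 18 to 20 of the 23 genes called.

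**Figure D2:**
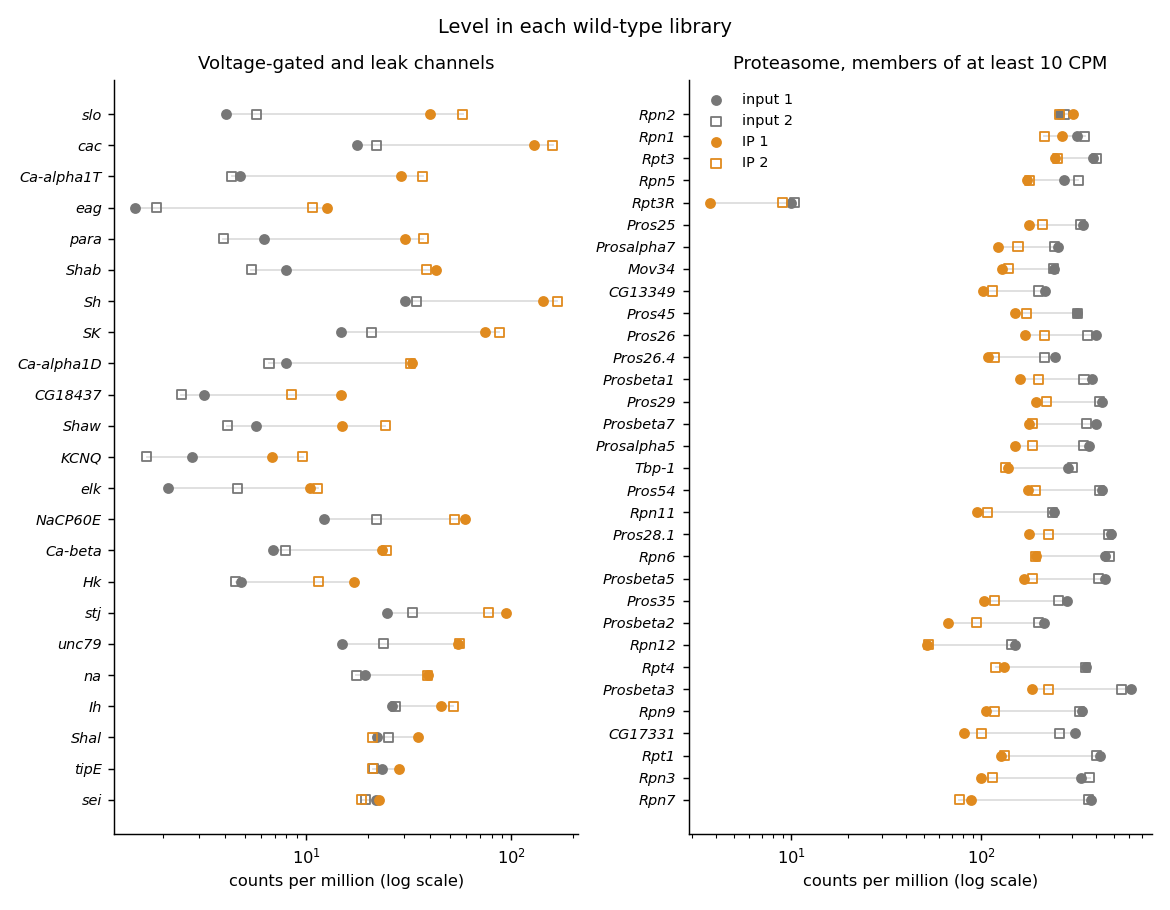
Level in CPM (log scale) of each tested voltage-gated and leak channel gene, and of each proteasome gene that reached 10 CPM, in inputs 1 and 2 (grey) and IPs 1 and 2 (orange). For 20 channel genes the orange symbols lie to the right of the grey ones, and for the proteasome nearly all lie to the left.

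Receptors for the fast transmitters followed. Acetylcholine is the main excitatory transmitter of the fly brain, and its nicotinic receptors are pentamers of alpha and beta subunits. Of 10 nicotinic subunit genes, 7 were higher and 0 lower, with a median of 1.68. Of the alpha subunits 6 of 7 were called and of the beta subunits 1 of 3. The gene of subunit alpha6 (deposited as nAcRalpha-30D) was at 21.2 and 28.4 CPM in the inputs and 114 and 184 CPM in the IPs (5.90-fold, log2 2.56 ± 0.23). Subunits alpha5 (2.14 ± 0.25) and alpha7 (2.03 ± 0.22) were next among those above 10 CPM, and beta1 had 1.80 ± 0.25. Subunit alpha3, also among the 7 called, had 0 and 1 counts in the inputs and 19 and 54 in the IPs. Only the IPs carried alpha3 past the count filter, so its call largely follows from the filter and adds no support. Subunits alpha2, beta2 and beta3, at 0.37, 0.51 and 0.20, did not pass.

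Of 15 tested receptor genes for GABA, glutamate and muscarinic acetylcholine signals, 12 were higher and 0 lower, with a median of 0.97. Rdl, the GABA-gated chloride channel gene, was at 3.84 and 5.89 CPM in the inputs and 25.7 and 37.7 CPM in the IPs (6.53-fold, log2 2.71 ± 0.32), without overlap. The glutamate-gated chloride channel gene GluClalpha had 1.26 ± 0.23 and GABA-B-R3, a metabotropic receptor gene, 1.38 ± 0.33. Both NMDA receptor subunit genes were called, with 1.25 ± 0.35 for Nmdar1 and 0.70 ± 0.25 for Nmdar2. Of 10 receptors for serotonin, dopamine and octopamine, 8 were higher and 0 lower, with a median of 1.38. The serotonin receptor gene 5-HT1A was at 5.22 and 7.76 CPM in the inputs and 16.1 and 27.8 CPM in the IPs (log2 1.73 ± 0.34). These low-level lists depended on single libraries: without input 1 the counts were 4 for the GABA and glutamate list and 4 for the monoamine list, and for the latter they were 5 without input 2 and 3 without IP 2.

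Of 4 genes for making, moving and breaking down acetylcholine, 2 were higher and 0 lower, with a median of 0.66, and 1 was higher without input 1 or with the length trend removed. Cha, which encodes choline acetyltransferase, was at 21.1 and 19.8 CPM in the inputs and 53.4 and 52.4 CPM in the IPs (log2 1.37 ± 0.25), and VAChT, the vesicular acetylcholine transporter gene in the same locus, had 0.83 ± 0.23. The call for VAChT was lost without input 1 (0.53, edgeR adjusted p = 0.243) and with the length trend removed (0.15, edgeR adjusted p = 0.483). Ace, the acetylcholinesterase gene, had 0.23 ± 0.21 and CG7708 0.49 ± 0.26, both not called. Of 27 neuropeptide precursor and processing genes, 4 were higher and 1 lower, with a median of -0.13. The shares of 14.8% and 3.70% lie below the background over all tested genes. The median level of this list was 8.24 CPM, and few genes below 10 CPM were called lower at all. The higher count was 1 without input 1 and 1 without input 2, and the lower count was 4 without IP 2. The exception in size was amn, which encodes a neuropeptide precursor known from memory studies, at 4.82 and 7.27 CPM in the inputs and 32.3 and 32.9 CPM in the IPs (2.45 ± 0.31). The insulin-like peptide gene Ilp3, made by neurosecretory cells, had -0.94 ± 0.33 and was called lower, a call that was lost under 6 of the 12 alternatives, among them the fit without pairing (edgeR adjusted p = 0.0503).

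Proteasome genes were the most uniformly lowered group. The proteasome degrades ubiquitin-tagged proteins and is built from a core of alpha and beta subunits and a regulatory particle of Rpn and Rpt subunits. Of 35 tested genes 30 were lower (85.7% against 20.8%) and 2 higher, and the median was -1.06. Rpn7, a lid subunit gene (3R: 18286380 to 18287772 in dm3), was at 376 and 368 CPM in the inputs and 88.0 and 76.6 CPM in the IPs, 4.53-fold lower (log2 -2.18 ± 0.21, edgeR adjusted p = 7.59e-22). Rpn3 had -1.71 ± 0.21, the ATPase gene Rpt1 -1.67 ± 0.21 and the core subunit gene Prosbeta3 -1.50 ± 0.21. The levels of input and IP were apart for each of these. The 2 that were higher, CG31742 (Prosbeta5R2) and CG6789 (Rpn13R), are paralogs that were nearly undetected in the inputs: CG31742 had 0 counts there and 1.53 and 1.87 CPM in the IPs, and CG6789 was at 0.163 and 0.589 CPM against 7.11 and 9.63 CPM. Between 27 and 31 genes were called lower when any 1 library was left out.

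Mitochondrial ribosomal proteins build the separate ribosome of mitochondria. Of 72 tested genes 58 were lower, 0 higher and 14 not called, with a median of -0.98, and without input 1 the count was 37. mRpL41 was at 35.3 and 32.5 CPM in the inputs and 5.47 and 12.4 CPM in the IPs (-2.01 ± 0.30), and mRpS18C had -1.85 ± 0.31. Of 33 aminoacyl-tRNA synthetase genes, whose enzymes charge tRNAs, 13 were lower and 0 higher, and 5 were lower without input 2. Of 15 genes of the chaperonin and prefoldin, which fold actin and tubulin, 12 were lower and 0 higher, and 6 were lower without input 1 or without input 2. All 5 prefoldin subunit genes were among them, led by CG13993 (Pfdn1) at 98.8 and 84.4 CPM against 20.6 and 38.7 CPM.

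Of 12 RNA polymerase II subunit genes 8 were lower and 0 higher, with a median of -0.82. Rpb10 fell by 1.85, Rpb11 by 1.61 and Rpb8 by 1.29 on the log2 scale. The genes of the catalytic pair of subunits had values near 0 and were not called, RpII215 with 144 and 154 CPM in the inputs and 192 and 163 CPM in the IPs and RpII140 with 121 and 132 CPM against 133 and 99.5 CPM. Of 27 spliceosome protein genes 15 were lower and 0 higher, with a median of -0.63. Prp19, which activates the spliceosome, was at 173 and 163 CPM in the inputs and 51.3 and 30.0 CPM in the IPs (-2.09 ± 0.22). The U1 and U2 snRNP gene snf had -1.39 ± 0.21 and SmB -1.38 ± 0.21. LSm7 (-1.41 ± 0.22) shares 40.5% of its exon bases with another gene and Rpb10 18.1%, so their counts are less certain.

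DNA replication genes, which mark cells in S phase, were lower for 24 of 32 members and higher for 0, with a median of -0.86. RPA2, a single-strand binding protein gene, was at 105 and 89.8 CPM in the inputs and 33.9 and 36.2 CPM in the IPs (-1.47 ± 0.23). The clamp gene mus209 (PCNA) was at 342 and 309 CPM against 145 and 175 CPM (-1.03 ± 0.21), and the helicase subunit genes Mcm2, Mcm3, Mcm5, Mcm6, Mcm7 and dpa (Mcm4) were each lower, with dpa at -0.95 ± 0.21 and Mcm7 at -0.53 ± 0.22. Inputs and IPs did not overlap for these genes. Without input 1 the count of members called lower was 11. Of 19 ribosome biogenesis genes, whose products act in the nucleolus, 10 were lower and 0 higher, among them NHP2 (-1.85 ± 0.22) and mod (-1.41 ± 0.21), and the count was 6 without input 1 and 6 without input 2.

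Of 12 glycolysis genes 7 were lower and 0 higher, with a median of -0.57. Pglym78, a phosphoglycerate mutase gene, was at 176 and 176 CPM in the inputs and 67.7 and 70.1 CPM in the IPs (-1.35 ± 0.21), Tpi had -1.04 ± 0.21 and Eno -1.03 ± 0.22. The entry enzymes of the pathway were not called, with 0.04 ± 0.21 for Hex-A and 0.02 ± 0.21 for Pfk. Of 19 tricarboxylic acid cycle genes 9 were lower and 0 higher, led by the small succinate dehydrogenase subunit genes CG10219 (SdhD), SdhC and SdhB, with values from -1.34 to -1.21. Without input 1, and likewise without input 2, the counts were 4 for glycolysis and 3 for the cycle, and without IP 2 the cycle had 15. Of 26 glutathione S-transferase genes, which detoxify electrophiles, 12 were lower and 1 higher, and 6 were lower without input 1. GstD1 was at 1460 and 1210 CPM in the inputs and 446 and 461 CPM in the IPs (-1.55 ± 0.23).

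Of 15 coat protein genes of vesicle traffic 8 were lower and 0 higher (4 without input 1, and 4 without input 2), and of 28 genes of ER translocation and folding 8 were lower and 1 higher (28.6% and 3.57%). By role, the lower count was 5 of 8 for the signal recognition particle, with Srp68 at -1.06 ± 0.22, and 3 of 13 for the translocon, signal peptidase and oligosaccharyltransferase. The ER list had 5 lower and 0 higher without input 1. Among 43 translation factor genes 12 were lower and 5 higher (27.9% and 11.6%), with a median of -0.16. Without input 1 the split was 7 lower and 1 higher, and without IP 1 it was 14 and 12. pAbp, the poly(A)-binding protein gene, rose from 5970 and 6450 CPM to 11400 and 12200 CPM (0.93 ± 0.27), and the scaffold gene eIF4G from 271 and 275 CPM to 497 and 420 CPM (0.74 ± 0.21). The exchange factor gene eEF1delta fell from 470 and 452 CPM to 147 and 194 CPM (-1.45 ± 0.21). Of 23 tested vacuolar proton ATPase genes, which acidify vesicles, 7 were higher and 4 lower (3 and 2 without input 1). Vha16, the gene of the proton-conducting ring, rose from 1000 and 1010 CPM to 2100 and 2050 CPM (1.04 ± 0.24), and 3 of the other 6 (CG12602, CG4624 and CG13167) were paralogs with at most 0.295 CPM in an input.

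In some lists the members that rose were longer than those that fell. Across all tested genes the log2 change correlated with exon length at 0.26 (Spearman, n = 9437 genes that share 4 libraries). Among 38 Polycomb and trithorax group genes, which hold chromatin silent or active, 6 were higher and 15 lower, and this correlation was 0.81. The 6 higher genes were osa, trx, kis, skd, dom and E(bx), with 9566 to 18944 exon bases. The chromatin remodeller gene kis was at 585 and 600 CPM in the inputs and 1630 and 1130 CPM in the IPs (1.20 ± 0.23). The small remodeller subunit gene Bap55, with 1449 exon bases, was at 246 and 252 CPM against 67.2 and 72.8 CPM (-1.83 ± 0.21), although its protein sits in the same complex as that of osa (1.25 ± 0.21). The Polycomb genes E(z) and Sce had -1.25 ± 0.23 and -1.32 ± 0.23. With the exon-length trend of each library removed, 0 members were higher and 31 lower, and without input 2 the split was 4 higher and 7 lower.

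The same order held among genes of the axonal cytoskeleton and transport (Spearman 0.80 over 24 genes), where 9 were higher and 3 lower. The spectraplakin gene shot, a linker of actin and microtubules with 29823 exon bases, was at 116 and 122 CPM in the inputs and 1090 and 691 CPM in the IPs (7.29-fold, 2.87 ± 0.23). The heavy spectrin gene kst rose by a log2 of 2.40 ± 0.22, the dynein heavy chain gene Dhc64C by 1.22 ± 0.21 and futsch, a microtubule-associated protein gene of axons, by 1.28 ± 0.23. The kinesin genes Khc and Klc were 1.56-fold and 1.99-fold lower and tau had -0.59 ± 0.22, also lower. With the length trend removed the cytoskeleton list had 4 higher and 8 lower, and without input 2 its lower count was 1.

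Counts in signalling lists also changed with the length correction. Of 13 ecdysone response genes 6 were higher and 0 lower. Eip74EF, an early ETS gene of the steroid response, was at 52.7 and 57.5 CPM in the inputs and 204 and 212 CPM in the IPs (1.92 ± 0.22), and EcR, the receptor gene, had 0.86 ± 0.21. With the correction 1 member was higher and 1 lower, with Eip93F at 0.01 and tai at 0.34, both not called. Of 26 second messenger genes 11 were higher and 2 lower (6 and 5 with the correction, 6 and 1 without input 1), among them the cyclic AMP genes dnc (1.09 ± 0.23) and rut (1.64 ± 0.31), both known from learning mutants, and the phospholipase gene norpA (1.83 ± 0.24). Of 20 neuronal RNA-binding protein genes 7 were higher and 2 lower (4 and 4 with the correction). The translational repressor gene pum was at 111 and 124 CPM in the inputs and 303 and 418 CPM in the IPs (3.03-fold). Without input 1 the higher count was 3, and without IP 2 it was 14.

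Growth and patterning pathways were mixed, and of those given here only Hippo had a share called higher (41.7%) above the background of 19.3%. In the Hippo pathway, which limits organ growth, 5 of 12 genes were higher and 2 lower. The large cadherin genes ds and ft had 1.27 ± 0.23 and 0.98 ± 0.23 and the scaffold gene kibra 1.61 ± 0.25, while the kinase gene hpo fell by 0.95 on the log2 scale. Without input 2 the split was 3 and 1. With the correction ds (0.07) was not called and ft was lower (-0.47, edgeR adjusted p = 0.0185). In the insulin and TOR pathway 3 of 16 were higher and 1 lower (18.8% and 6.25%, against 19.3% and 20.8% over all tested genes). InR, the insulin receptor gene, was at 1.30 ± 0.22 and Rheb, the TOR activator gene, at -0.77 ± 0.21. With the correction 1 was higher and 7 lower, and without IP 1 the split was 4 and 3. In the hedgehog pathway 1 of 11 was higher (ptc, 0.84 ± 0.23) and 1 lower (cos, -0.57 ± 0.22), a share of 9.09% each. In the JAK/STAT pathway 1 of 8 was higher (Socs36E, 0.77 ± 0.22) and 2 lower, shares of 12.5% and 25.0%, with 1 and 5 under the correction. The calls for ptc, cos and Socs36E were each lost without input 2, which left 0 called members in both pathways by edgeR.

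**Figure D3:**
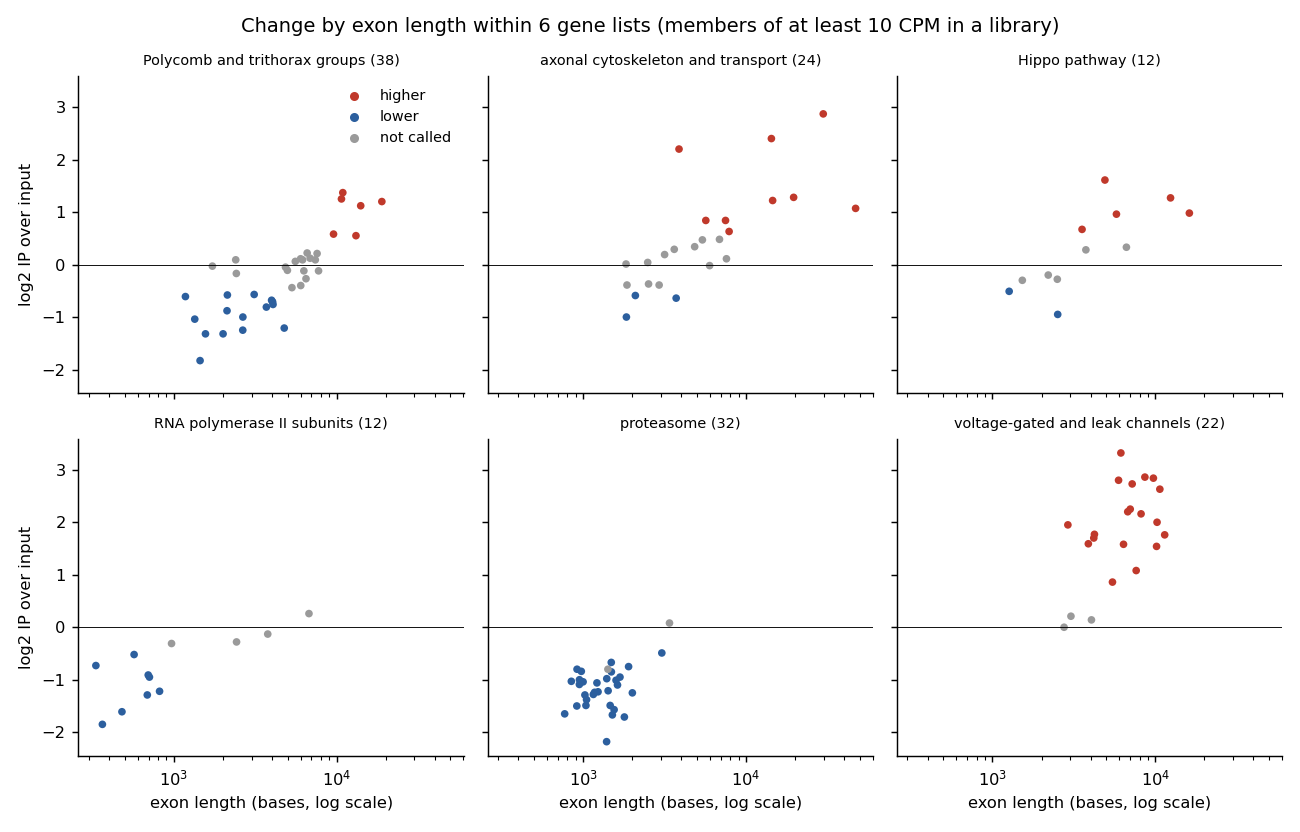
Log2 change from input to IP (vertical axis) against exon length in bases (horizontal log axis) for members of 6 lists with at least 10 CPM in a library. Red points of the 3 upper panels lie mostly to the right of the blue ones, whereas nearly all proteasome points lie below 0 and nearly all channel points above 0.

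In other lists most members called without the length correction were called the same way with it. This held for 17 of 20 channel genes and 7 of 7 nicotinic subunit genes, which include alpha3 with its near absence in the inputs. It also held for 30 of 30 proteasome genes called lower, 48 of 58 mitochondrial ribosomal protein genes and 21 of 24 DNA replication genes. The channel median was 1.42 with the correction and the proteasome median -0.79. Gene structure was described over all tested genes with a gene model (9188 genes, for each the mRNA with the longest coding part). Of the 1838 genes in the quintile with the longest introns in total, with a median of 14952 bases, 43.5% were higher and 3.75% lower. In the shortest quintile, with a median of 52 bases, the shares were 13.2% and 32.7%. For mRNA length the shares were 41.6% and 4.95% in the longest quintile and 11.3% and 33.8% in the shortest. Spearman correlations with the log2 change across genes were 0.337 for intron length, 0.305 for mRNA length, 0.268 for exon number and 0.234 for coding length.

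Both lengths went with the change within terciles of the other, but a tercile does not hold the other length fixed. In the longest mRNA tercile the median mRNA was 4747 bases with long introns and 3436 with short introns. In the shortest tercile it was 1232 and 1024 bases. Among genes in the longest tercile of mRNA length, 43.5% of 1958 genes with long introns were higher, against 17.8% of 236 genes with short introns. Among genes in the shortest tercile of mRNA length, 15.2% of 230 genes with long introns were higher and 17.8% lower, against 10.5% and 36.1% of 1877 genes with short introns. Within genes of 20 to 100 CPM the extremes were 44.0% higher of 814 genes with long mRNA and long introns, and 58.1% lower of 787 genes with short mRNA and short introns. Whether length itself goes with the change apart from cell type was not tested.

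**Figure D4:**
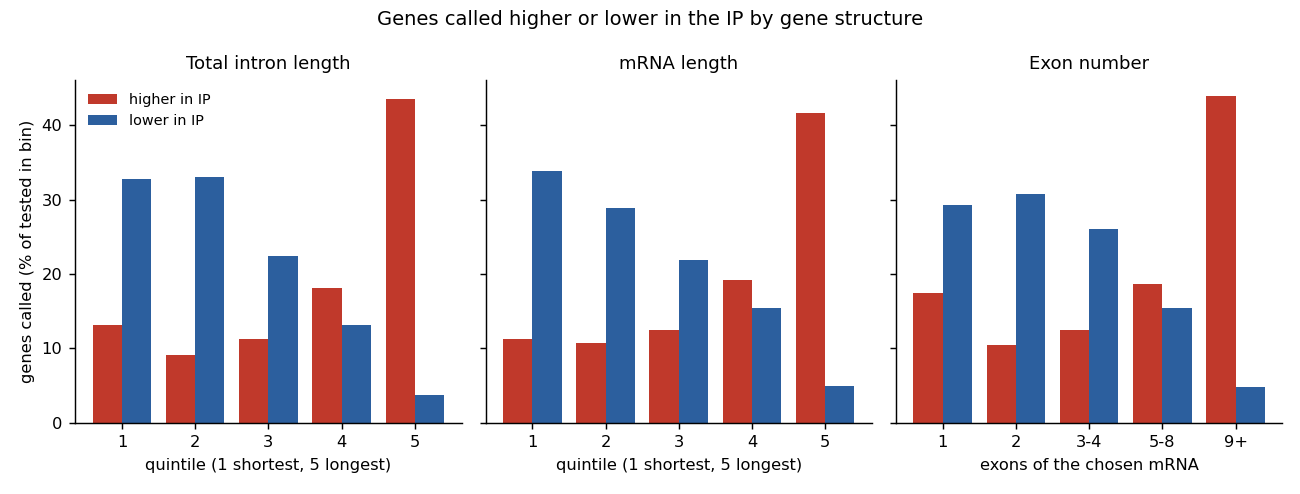
Share of tested genes called higher (red) or lower (blue) in the IP, as percent of the genes in each bin, by quintile of total intron length, quintile of mRNA length and exon number. Red bars rise to 43.5%, 41.6% and 43.9% in the last bin of each panel, where blue bars are at 3.75%, 4.95% and 4.81%.

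By chromosome, 384 of the 1603 tested genes of the X were higher and 15.5% lower, while shares on the autosomal arms were 17.0% to 18.8% higher and 21.6% to 22.5% lower. The small chromosome 4, which is largely heterochromatic, had 36 of 79 genes higher (45.6%) and 5 lower, and genes on heterochromatin and unplaced scaffolds had 25 of 57 higher (43.9%) and 7 lower. CG15831 and CG40155, listed apart on a chromosome 3 heterochromatin scaffold, now belong to 1 gene, Myo81F, whose introns span a very large region. CG15831 was at 7.59 and 9.43 CPM in the inputs and 101 and 148 CPM in the IPs (14.4-fold, 3.85 ± 0.26), and CG40155 had a log2 change of 3.76 ± 0.31. They count as separate genes above although they are parts of one.

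Noncoding RNAs were higher without exception among called members. Of 43 tested genes annotated as lncRNA 23 were higher (53.5%) and 0 lower. The gene noe (3L: 17393447 to 17394448 in dm3), listed among long noncoding RNAs, was at 8380 and 8660 CPM in the inputs and 21600 and 38500 CPM in the IPs (1.76 ± 0.30). Per kilobase of exon its mean level was 8500 CPM in the inputs and 30000 CPM in the IPs, where it ranked first among all genes, ahead of Ef1alpha48D, the gene of the main elongation factor, which ranked first in the inputs. The RNA pncr002:3R moved from rank 69 to rank 3. The dosage compensation RNA roX1 rose from 1490 and 1630 CPM to 4500 and 4790 CPM (1.57 ± 0.25), roX2 had 1.77 ± 0.22 and the stress RNA Hsromega 1.72 ± 0.24, and these 3 are known as nuclear RNAs.

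Of 36 tested genes named CR with a number 18 were higher and 0 lower, with a median of 1.08. CR42860 was at 4.98 and 2.26 CPM in the inputs and 26.4 and 29.2 CPM in the IPs (2.97 ± 0.35) and is now named as an antisense RNA. The list is not purely noncoding, since CR31846, CR30068, CR32028 and CR33328 now carry the names of other genes (CG42784, Ih, Unr and sqd), and reads were counted without strand. CG31781, now a lncRNA, had rank 3 by size among genes called higher of at least 50 CPM, from 8.08 and 9.43 CPM to 144 and 108 CPM (14.3-fold, 3.84 ± 0.26).

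Muscle genes were higher in the IP although the tissue is brain. Of 15 sarcomere and muscle genes 12 were higher and 1 lower, with a median of 1.91, the highest median of the 43 lists. The gene of projectin, bt (4: 745030 to 796707 in dm3), was at 5.96 and 5.60 CPM in the inputs and 150 and 99.8 CPM in the IPs, the largest change of any gene above 50 CPM (21.3-fold, log2 4.41 ± 0.27, edgeR adjusted p = 5.59e-56). The myosin heavy chain gene Mhc was at 3.18 and 2.46 CPM against 38.6 and 22.2 CPM (3.40 ± 0.35), and sls, the gene of the titin relative kettin, at 37.5 and 54.0 CPM against 363 and 245 CPM (2.73 ± 0.22). Tm1, which also has forms outside muscle, was the 1 lower member (-0.66 ± 0.22), and the muscle regulator gene Mef2 (0.45 ± 0.24) and Mlp60A were not called. Outside the list, the nesprin gene Msp-300, which anchors nuclei in muscle, rose 8.83-fold (3.14 ± 0.25), but its log2 change was 0.30 with the length trend removed (edgeR adjusted p = 0.105). The summed list went from 897 and 988 CPM in the inputs to 1460 and 1320 CPM in the IPs. Tm1, the lowered member, made up 649 and 707 CPM of the input sums and 415 and 445 CPM of the IP sums. The part of muscle genes in the other results was not tested.

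Other cell types gave smaller counts. Of 14 glial genes 2 were higher and 2 lower (14.3% each), with a median of 0.08. The glial master gene repo was at 68.2 and 64.0 CPM in the inputs and 66.0 and 47.1 CPM in the IPs (-0.24, not called). The cortex and midline glial gene wrapper was 2.64-fold lower (-1.40 ± 0.25) and loco was also lower (-0.67 ± 0.21), whereas Gli was higher (0.88 ± 0.24). The most abundant glial marker, nrv2, was not called (0.19 ± 0.20). Without input 1 the glial counts were 0 higher and 1 lower by edgeR. Of 11 hemocyte genes 4 were higher and 2 lower (36.4% and 18.2%). Their summed level, 786 and 565 CPM in the inputs and 724 and 478 CPM in the IPs, was higher in preparation 1 on both sides. CG8193 (PPO2), called lower (-0.74 ± 0.20), made up 380 and 260 CPM of the input sums and 253 and 139 CPM of the IP sums. Its call was lost without pairing (-0.71, edgeR adjusted p = 0.0551). Without input 2 the hemocyte counts were 1 higher and 2 lower, and without IP 1 they were 2 and 2. Of 8 ring gland genes 0 was called by edgeR, 0 by the DESeq2 Wald test and 0 by limma-voom, while 1 had an unadjusted p below 0.05, with a median of -0.29 and sad at 223 and 176 CPM against 192 and 158 CPM. Of 8 tested photoreceptor and eye disc genes 1 was higher, and without IP 1 the split was 3 higher and 2 lower. The rhodopsin gene ninaE had 0 counts in all 4 libraries. Of 8 tracheal and epidermal genes 2 were higher and 1 lower (25.0% and 12.5%).

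Fat body genes differed by preparation as well as by IP. Of 7 tested genes 4 were higher and 0 lower. Fbp1, a larval serum protein receptor gene, was at 34.0 and 6.58 CPM in inputs 1 and 2 and at 63.8 and 14.2 CPM in IPs 1 and 2, so input 1 lay above IP 2 and the groups overlapped. Its log2 change of 0.99 ± 0.27 in the paired fit was not called without pairing (0.94, edgeR adjusted p = 0.303) and became -0.49 without IP 1. Lsp1beta (1.66 ± 0.42) lost its call without pairing too (1.29, edgeR adjusted p = 0.208). The summed list was at 145 CPM in input 1 and 236 CPM in IP 1, against 55.7 CPM in input 2 and 110 CPM in IP 2. Without IP 1 the list had 1 higher member and without input 2 it had 0 higher and 1 lower.

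The remaining genes with the largest changes above 50 CPM had varied roles. CG14073, without a role given here, was at 49.2 and 53.9 CPM in the inputs and 832 and 397 CPM in the IPs (11.2-fold, 3.48 ± 0.23). CG34139, now Nlg4, encodes a neuroligin of the synapse and rose 8.97-fold, and CG9192 rose 9.26-fold. The gene dp, of a giant extracellular matrix protein with 69439 exon bases, was at 31.1 and 36.9 CPM in the inputs and 319 and 216 CPM in the IPs (2.96 ± 0.23), but had 0.08 with the length trend removed (edgeR adjusted p = 0.689). At the other end the heterochromatin protein gene HP1c was at 117 and 125 CPM against 27.1 and 27.4 CPM (4.44-fold lower, with 16.5% of its exon bases shared). CG10341, c12.1, CG4250, CG3223 and CG6617 were 4.09-fold to 4.41-fold lower, CG7946, now Jasper, 4.16-fold and CG9099, now the translation reinitiation factor gene DENR, 4.11-fold, the last with 35.1% of its exon bases shared. Inputs and IPs did not overlap for any gene of this paragraph.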

How the data were processed

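The authors deposited an unnormalized count for every gene in each run; the submitters' processing notes name TopHat2 2.0.12 and featureCounts 1.4.4. The counting command in the header used dm3 exons, required mapping quality 5 or more, and set no strand, pair or overlap option, so reads of overlapping or near-identical genes are uncertain. The 4 runs of each library were summed. Counts were tested with edgeR 4.0.16 in R 4.3.3 (filterByExpr, TMM factors, quasi-likelihood F test, Benjamini-Hochberg over 9437 genes, threshold 0.05). Alternatives used DESeq2 1.42.0 and limma 3.58.1. With 2 libraries a group, exact permutation p-values start at 0.33, so none was computed.

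Preparation number was a block, because the labels' protocol takes input and IP from 1 homogenate. The replicate deviations of input and IP correlated at 0.0893 across genes. The paired fit has 1 residual degree of freedom and its estimated prior had no upper limit, so all genes share 1 spread trend (common coefficient of variation 0.175). Very small p-values and the SE after each ± sign rest on that sharing. Without the block the prior had 8.63 degrees of freedom and the smallest adjusted p was 1.88e-05.

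On simulated counts of this comparison (9234 genes), 98.0% of genes raised by a log2 of 2 were called, 60.0% of those raised by 1, and 0.0553% of unchanged genes. The simulation left 9039 genes unchanged and gave every gene the same spread in inputs and IPs. In the data 40.1% of genes were called. The SD of the log2 ratio between replicates was 0.41 for IPs and 0.266 for inputs, over genes of at least 10 CPM. These rates may therefore not hold for the data. Genes were named from several sets, and some members of these sets are not given in the text. One set was the 10 largest changes in each direction among called genes of at least 50 CPM with 1 sign in both preparations. Another was up to 3 called members of at least 10 CPM per list. All T4/T5 factors, RpL10Ab and the most abundant marker of each other cell type were added. Further list members were chosen after their values were seen. Members and lists were chosen with earlier results of these data known. Names were matched to a current table (10669 as current symbols, 2062 by locus tag, 1181 by synonym, 249 without a match), and 24 of 1007 listed symbols had no match. Gene lengths came from a later annotation by name, without coordinates; exon lengths are those of the deposited table. Promoter motifs and protein properties were not analysed here. Results of 1 gene list are not reported here. Counting floors cover counting error only. Figures used matplotlib.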

Additional observations from a re-analysis of the deposited data

How the results depend on the processing

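Removing the pairing (no replicate block) gave 1809 genes higher and 1876 lower, of which 1702 and 1808 were also called in the paired fit; it ended 5 calls among the named genes and added RpL10Ab. The counts lay within 1.5 times of 1820 and 1963 with DESeq2 size factors, limma-voom, both filters on low counts, the length trend removed and 1 run per library. The DESeq2 Wald test gave 1331 higher and 1230 lower. When 1 library was left out, without pairing, counts ran from 1048 to 2034 higher and from 1126 to 2341 lower, with 1212 and 1244 without input 2. Without an IP, the lone IP is assumed to vary like the inputs, and likewise for the inputs. With the length trend removed, 1447 of the higher and 1746 of the lower genes kept their call (995 and 1123 without input 1, 1178 and 1379 with 1 run), 26 of 43 list medians moved by more than the spread between preparations, and 3 named genes changed sign (ft -0.47, Rfabg -0.24, pros -0.50). The tracheal gene verm, not called, turned to 0.06 with the filter of 10 CPM, 0.10 with 1 run and 0.09 without IP 2, and Fbp1 to -0.49 without IP 1. The median log2 change of all genes was 0.01, and 0.23 with no filter (12978 genes), where changes are relative to that value; in the other alternatives it lay between -0.03 and 0.06. Depth limits low genes: 3 counts stand for 0.245 to 0.401 CPM.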
